A study of Mus musculus with 36 samples.

Results

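The 8 genes described here are Prg2, Ccr3, Ccl24, Ccl26, Il5, Cma1, Tpsab1 and Kit, which mark eosinophils and mast cells or act on them. They were chosen by name from the 770 genes counted in 36 mouse pancreatic tumours, with earlier results of the contrast of TP-0903+Gemcitabine with Vehicle in view. All 8 were on the panel, and all 8 passed the filter on low counts that left 683 genes tested. The tumours grew from KPfC BMF-A3 cells, a single mouse pancreatic tumour line implanted in the pancreas of C57BL/6 mice with their own immune system. Treatment ran from day 10 after implantation and all mice were killed on day 35.

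The arms were TP-0903+Gemcitabine+anti-PD1 (5 tumours), TP-0903+anti-PD1 (4), Gemcitabine+anti-PD1 (4), Anti-PD1 (4), TP-0903+Gemcitabine (5), TP-0903 (4), Gemcitabine (4) and Vehicle (6). TP-0903 inhibits the receptor kinase Axl and was given daily by mouth at 25 mg/kg. Gemcitabine, a chemotherapy drug that blocks DNA synthesis, was given into the peritoneum 3 times weekly at 25 mg/kg. The anti-PD1 antibody, clone RMP14-1, followed the same route 2 times weekly at 5 mg/kg. Nothing in the labels says which mice shared a cage or a day, so p-values measure the spread between these tumours.

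Eosinophils are granulocytes that mature in the marrow under interleukin 5, leave the blood for tissues by following eotaxins that bind the receptor CCR3, and carry granules filled with cationic proteins such as the Prg2 product. Mast cells settle in tissues as precursors and depend on the receptor kinase KIT, and they store proteases, the chymases and tryptases, in their granules. Both cell types take part in type 2 immune responses, and both have been found in the stroma of pancreatic tumours. Transcription factors of the GATA family act in the formation of both.

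The promoters of Ccr3 and Cma1 are printed because these genes stand for the 2 cell types in the results below and both held a GATA motif. RefSeq's table for GRCm38.p6 had promoters of 4 of the 8 genes (Ccr3, Il5, Cma1 and Kit). Capitals mark matches to AGATAA, to TGATAA, to AGATAG or to TGATAG on either strand in the 250 bases before the start. The Ccr3 stretch, chr9:124021721-124021970 on the plus strand, held 2 matches and lies within the annotated gene. The Cma1 stretch, chr14:55944676-55944925 on the minus strand, held 1.
Ccr3: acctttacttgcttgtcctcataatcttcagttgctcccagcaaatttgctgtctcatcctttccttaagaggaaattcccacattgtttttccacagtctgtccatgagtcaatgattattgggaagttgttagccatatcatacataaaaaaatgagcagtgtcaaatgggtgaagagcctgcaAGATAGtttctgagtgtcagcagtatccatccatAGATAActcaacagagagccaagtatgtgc
Cma1: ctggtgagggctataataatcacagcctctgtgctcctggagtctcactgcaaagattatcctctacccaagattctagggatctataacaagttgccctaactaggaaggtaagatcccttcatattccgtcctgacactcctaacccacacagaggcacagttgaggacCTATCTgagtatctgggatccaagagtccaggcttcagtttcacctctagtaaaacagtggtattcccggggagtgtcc
The Il5 promoter also held 1 match and the Kit promoter held 0. Of all 27025 mouse promoters in the table, 7322 (27.1%) held at least 1 match, so a match in 3 of 4 stretches is a description of these letters and nothing more.

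Levels are scaled counts, which are raw counts divided by the lane's housekeeping factor. A count was taken as above background where it exceeded the mean plus 2 SD of the 8 negative controls of its lane. Total counts per tumour ran from 115973 to 552876, and the threshold corresponded to between 10.9 and 37.5 scaled counts. The lanes lay on 3 cartridges of 12. Cartridge 1 held all Vehicle and TP-0903 tumours and 2 Gemcitabine tumours, cartridge 2 held all Anti-PD1 and TP-0903+Gemcitabine tumours, 2 Gemcitabine tumours and TP-0903+anti-PD1 replicate 1, and cartridge 3 held the rest. TP-0903 replicate 3 and Vehicle replicate 3 stood apart from the other tumours by their liver and lung transcripts (summed liver markers up to 169336 and lung markers up to 13970 scaled counts). Results that rest on these tumours are given with and without them.

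Most of the 8 genes were counted close to background. Kit was above threshold in 33 of 36 tumours, Ccl24 in 26, Tpsab1 in 21, Prg2 in 16, Cma1 in 16, Ccr3 in 10, Ccl26 in 7 and Il5 in 5. Prg2 was above threshold in 16 of 30 treated tumours and in 0 of 6 Vehicle tumours, and Ccr3 in 10 of 30 treated tumours and in 0 of 6 Vehicle tumours. Il5 was above in 5 of 30 treated and 0 of 6 Vehicle tumours, and Ccr3 in 0 of 4 Anti-PD1 tumours. All Vehicle tumours lay on cartridge 1, and the share of all genes with such a pattern was not counted. Cma1 was above in 12 of 30 treated and 4 of 6 Vehicle tumours. Il5, the eosinophil growth factor, did not pass 29 raw counts in any tumour, so its level was not detectable in most tumours at this depth. In bulk tumour RNA, fewer cells of a type and less RNA per cell cannot be told apart.

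**Figure D1:**
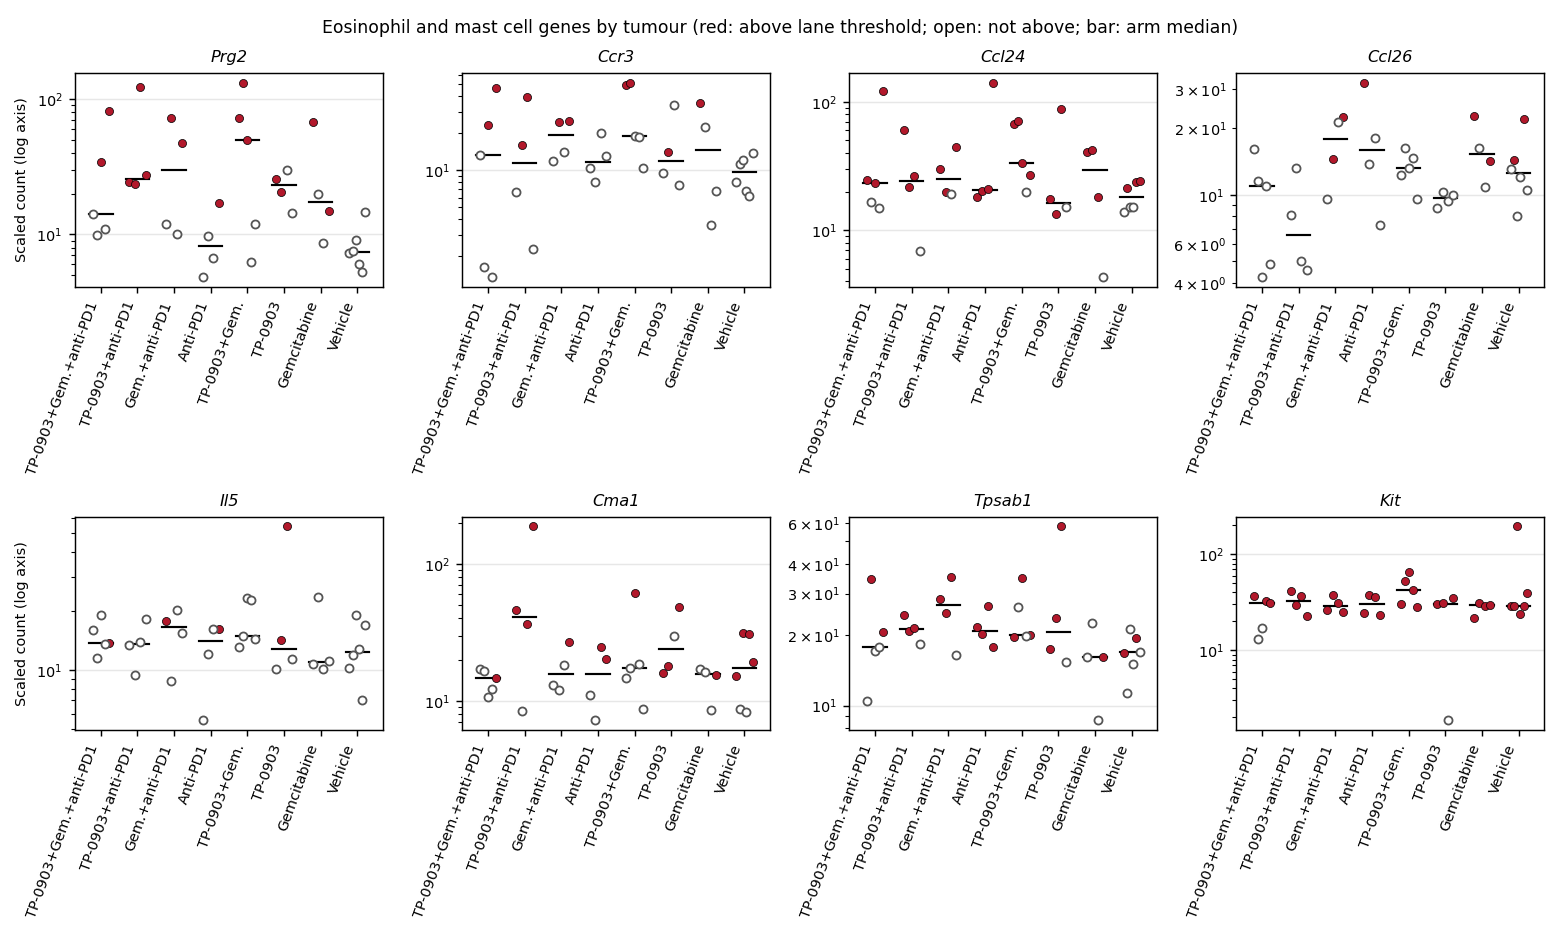
Scaled counts (log axis) of the 8 genes in each of the 36 tumours by arm, with red points above the lane's background threshold, open points not above it, and bars at arm medians. Prg2, Ccr3 and Il5 have no red point in the Vehicle arm and Ccr3 has none in the Anti-PD1 arm either, while Kit is red in all but 3 tumours.

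**Figure D2:**
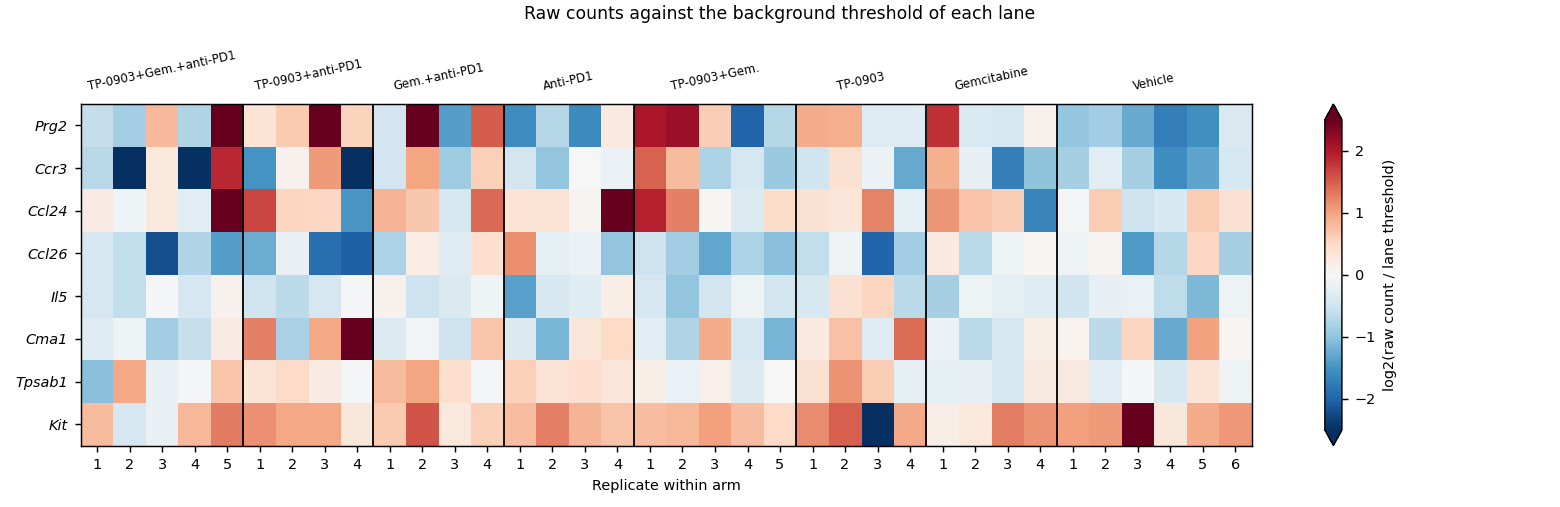
Log2 ratio of raw count to the lane's threshold for the 8 genes (rows) in the 36 tumours (columns, by arm and replicate), with red above and blue below the threshold and colours ending at the limits of the bar. Red in the Ccr3 row falls only in columns that are also red in the Prg2 row.

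Prg2 encodes the eosinophil granule major basic protein, which also occurs in other marrow-derived cells. Its gene lies on chromosome 2 at 84980461 to 84983632 (GRCm38.p6). In the antibody arms, Prg2 had 14.2, 9.89, 34.1, 10.9 and 82.2 scaled counts in TP-0903+Gemcitabine+anti-PD1 tumours, 24.2, 23.7, 122 and 27.5 in TP-0903+anti-PD1 tumours, 11.9, 72.9, 10.1 and 47.5 in Gemcitabine+anti-PD1 tumours, and 4.86, 9.69, 6.65 and 17.0 in Anti-PD1 tumours. In the arms without antibody it had 72.8, 131, 49.7, 6.25 and 11.96 in TP-0903+Gemcitabine tumours, 25.5, 20.5, 29.96 and 14.5 in TP-0903 tumours, 67.8, 19.99, 8.67 and 14.9 in Gemcitabine tumours, and between 5.28 and 14.6 with a median of 7.40 in Vehicle tumours. High tumours were scattered over the 6 arms with TP-0903 or gemcitabine, and each of these arms other than TP-0903+anti-PD1 also held tumours below threshold. All 4 TP-0903+anti-PD1 tumours were above their thresholds and, in scaled counts, above every Anti-PD1 and every Vehicle tumour. In raw counts they had 18, 25, 97 and 12, against up to 18 in Vehicle and up to 21 in Anti-PD1 tumours. The arms therefore overlapped before scaling. The tumour with 12 raw counts, replicate 4, was the shallowest library of the series.

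In TP-0903+anti-PD1 against Anti-PD1 tumours, neither of which entered the contrast behind the choice of genes, the Prg2 log2 fold was 2.37 ± 0.83 (SE, n = 4 each). It did not pass edgeR's quasi-likelihood test after Benjamini-Hochberg adjustment over 683 genes (adjusted p = 0.583). Without TP-0903+anti-PD1 replicate 3, the tumour with 122, the Prg2 fold was 1.38 ± 0.85. Separation of the arms in scaled counts, with every TP-0903+anti-PD1 tumour higher, was seen for 10 of 683 genes (1.46%) in this comparison. Against Vehicle it was seen for 9 of 683 (1.32%), and among the 8 genes it was seen for Prg2 alone in each. The 6 Vehicle tumours were part of the contrast behind the choice of genes, so every comparison with them, and the antibody average that includes them, draws on values that were in view and is not independent of that choice. Against Vehicle the Prg2 fold of TP-0903+anti-PD1 was 2.57 ± 0.73 with an edgeR adjusted p of 0.0889 (4 of 4 tumours higher than all 6 Vehicle tumours). It was 3.43 ± 1.58 with the cartridge as a block and 1.58 ± 0.78 without replicate 3 (adjusted p 0.695). Because Prg2 was not above background in any Vehicle tumour, the ratio of geometric means was also taken with each Vehicle tumour raised to its lane's threshold where it lay below. By that bound Prg2 was at least 2.19-fold higher in these tumours, a figure that allows for background but not for the spread between tumours. DESeq2 called this Prg2 difference (log2 fold 2.58 ± 0.70), among 10 of 683 genes (1.46%) it called there, whereas edgeR and limma did not call it.

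The other treated arms gave Prg2 log2 folds against Vehicle of 1.88 ± 0.71 in TP-0903+Gemcitabine+anti-PD1, 2.11 ± 0.73 in Gemcitabine+anti-PD1, 0.20 ± 0.79 in Anti-PD1, 1.42 ± 0.75 in TP-0903 and 1.71 ± 0.74 in Gemcitabine tumours. These comparisons share the 6 Vehicle tumours, and edgeR's adjusted p was 0.258 or higher in each. Single tumours carried much of these Prg2 folds, which were 1.00 ± 0.75 without TP-0903+Gemcitabine+anti-PD1 replicate 5, 1.49 ± 0.78 without Gemcitabine+anti-PD1 replicate 2 and 0.78 ± 0.79 without Gemcitabine replicate 1. Within cartridge 1, which held all Vehicle and TP-0903 tumours, the Prg2 fold was 1.42 ± 0.32 for TP-0903 and 2.40 ± 0.48 for the 2 Gemcitabine tumours on it, and neither passed edgeR's test (adjusted p 0.130 and 0.111). Against Anti-PD1, the Prg2 fold was 1.68 ± 0.80 in TP-0903+Gemcitabine+anti-PD1 and 1.90 ± 0.82 in Gemcitabine+anti-PD1 tumours (edgeR adjusted p 0.995 and 0.938). Without the same replicates 5 and 2, these Prg2 folds were 0.80 ± 0.82 and 1.28 ± 0.86. With the cartridge as a block, these 2 folds were 0.41 ± 1.46 and 0.64 ± 1.47 and that of TP-0903+anti-PD1 was 1.33 ± 1.21. Of the tumours of these arms, only TP-0903+anti-PD1 replicate 1 shared a cartridge with the Anti-PD1 tumours.

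Prg2 was not shown to differ between the antibody arms with both drugs and with one. The log2 fold of TP-0903+Gemcitabine+anti-PD1 was -0.69 ± 0.73 against TP-0903+anti-PD1 and -0.23 ± 0.73 against Gemcitabine+anti-PD1 (edgeR adjusted p 0.998 and 0.997), and the first was 0.30 ± 0.79 without TP-0903+anti-PD1 replicate 3. The interaction of TP-0903 with gemcitabine in the antibody arms, a comparison added after the values had been seen, was -2.60 ± 1.09 for Prg2 (edgeR adjusted p = 0.975), -1.56 ± 1.40 with the cartridge as a block, and from -3.48 without TP-0903+Gemcitabine+anti-PD1 replicate 5 to -1.61 without TP-0903+anti-PD1 replicate 3. Averaged over the antibody arms, TP-0903 gave a Prg2 fold of 1.07 ± 0.55 and gemcitabine 0.60 ± 0.55, neither past the test. Anti-PD1 averaged over its 4 backgrounds, which takes in the TP-0903+Gemcitabine and Vehicle tumours, gave 0.24 ± 0.38.

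Ccr3 encodes the eotaxin receptor of eosinophils, and lies on chromosome 9 at 124017825 to 124031692. It had 13.3, 1.65, 23.4, 1.36 and 47.0 scaled counts in TP-0903+Gemcitabine+anti-PD1 tumours, 6.73, 16.1, 39.1 and 2.29 in TP-0903+anti-PD1 tumours, 11.9, 24.8, 14.2 and 25.2 in Gemcitabine+anti-PD1 tumours, and 10.4, 8.07, 19.9 and 13.0 in Anti-PD1 tumours. It had 49.1, 51.3, 19.0, 18.8 and 10.4 in TP-0903+Gemcitabine tumours, 9.46, 14.2, 33.7 and 7.64 in TP-0903 tumours, 35.5, 22.5, 3.61 and 6.82 in Gemcitabine tumours, and between 6.16 and 13.8 with a median of 9.64 in Vehicle tumours. Every treated arm overlapped the Vehicle arm, and the values above threshold were 1 or 2 tumours in each of 6 arms. The value of 33.7 in TP-0903 replicate 3 was 18 raw counts in a lane with a low housekeeping factor (0.534) and lay below that lane's threshold.

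Across the 14 tested comparisons the Ccr3 log2 fold lay between -0.10 ± 0.69 (TP-0903+Gemcitabine+anti-PD1 against Gemcitabine+anti-PD1) and 0.98 ± 0.66 (Gemcitabine+anti-PD1 against Vehicle). None passed edgeR's test, and none had an unadjusted p under 0.05. In TP-0903+anti-PD1 tumours, where Prg2 separated from Anti-PD1, the Ccr3 fold against Anti-PD1 was 0.40 ± 0.75 and the 2 arms overlapped. The difference between the 2 genes' folds was not tested.

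Prg2 and Ccr3 were high in the same tumours. All 10 tumours with Ccr3 above threshold also had Prg2 above it, which is 100% of the Ccr3 tumours and 62.5% of the 16 Prg2 tumours. They were 2 tumours of the TP-0903+Gemcitabine+anti-PD1 arm, 2 of TP-0903+anti-PD1, 2 of Gemcitabine+anti-PD1, 2 of TP-0903+Gemcitabine, 1 of TP-0903 and 1 of Gemcitabine. With each arm centred on its own mean, log2(scaled count + 20) of Prg2 and Ccr3 correlated over 36 tumours with Pearson's r of 0.82 and Spearman's rho of 0.78. Both permutation p-values (100000 permutations within arms, two-sided) were 1e-05, the smallest these permutations can give, and 0.00028 after adjustment over 28 pairs of the 8 genes. Without the 2 tumours farthest from the median of Prg2, r was 0.78, and within the 3 cartridges it was 0.66, 0.79 and 0.86.

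Of the 28 pairs, the only others that passed in both measures were those of Prg2 and of Ccr3 with Ccl24. For Prg2 and Ccl24, r was 0.53 and rho 0.54 (permutation p 0.0017 and 0.00161, adjusted 0.0159 and 0.0150). For Ccr3 and Ccl24, r was 0.62 and rho 0.62 (permutation p 0.00094 and 0.00047, adjusted 0.0132 and 0.00658). Leaving out the 2 farthest tumours gave 0.55 and 0.57, and within cartridges r was 0.31, 0.60 and 0.64 for the Prg2 pair and 0.80, 0.44 and 0.81 for the Ccr3 pair. The mast cell genes did not join this group: r of Prg2 was 0.03 with Cma1, 0.05 with Tpsab1 and 0.07 with Kit. Nor did the mast cell genes pass as pairs among themselves, with r of 0.15 for Cma1 and Tpsab1, 0.17 for Cma1 and Kit and -0.14 for Tpsab1 and Kit.

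Markers of other cells were high in the same tumours as Prg2 and Ccr3. The neutrophil precursor list has 5 genes, of which Mpo, Elane, Ctsg and Camp were measured, all of them granule genes of immature neutrophils. Their summed scaled count lay between 174 and 2293 with a median of 665 in the 10 tumours with both Prg2 and Ccr3 above threshold, and between 36.9 and 372 with a median of 74.0 in the other 26. By arm the sum ran from 102 to 2293 in TP-0903+Gemcitabine+anti-PD1, 165 to 2086 in TP-0903+anti-PD1, 70.2 to 647 in Gemcitabine+anti-PD1, 49.5 to 77.9 in Anti-PD1, 42.3 to 683 in TP-0903+Gemcitabine, 68.8 to 350 in TP-0903, 40.5 to 1842 in Gemcitabine and 36.9 to 124.5 in Vehicle tumours. All 4 TP-0903+anti-PD1 tumours thus also lay above every Anti-PD1 and every Vehicle tumour in this sum, as they did in Prg2. At least 3 of the 4 genes were above threshold in each TP-0903+anti-PD1 tumour, and at most 2 in any Anti-PD1 or Vehicle tumour. The same was true of each TP-0903+Gemcitabine+anti-PD1 tumour, so this is not particular to TP-0903+anti-PD1. The sums of TP-0903+Gemcitabine+anti-PD1 tumours also lay above every Anti-PD1 tumour, though they overlapped Vehicle, whereas Prg2 in that arm overlapped both. Of the 4 genes, Mpo (log2 fold 4.81 ± 1.10, adjusted p 0.0217) and Elane (3.76 ± 0.96, adjusted p 0.0484) were called by edgeR in TP-0903+Gemcitabine+anti-PD1 against Vehicle, beside 0.878% of 683 genes. Neither Mpo nor Elane was called without Vehicle replicate 3 and TP-0903 replicate 3 (5.17 and 3.87, adjusted p 0.0757 and 0.126) or with the cartridge as a block (adjusted p 0.999 for both). With single tumours left out the adjusted p ran from 0.0302 to 0.151 for Mpo and from 0.0414 to 0.289 for Elane, highest without TP-0903+Gemcitabine+anti-PD1 replicate 5, where Elane was 2.56. The Mpo call was lost without TP-0903+Gemcitabine+anti-PD1 replicate 3 or 5 or Vehicle replicate 3, and the Elane call without either of the same 2 treated tumours or any 1 Vehicle tumour. Of the 4 genes 0 were called in the other tested comparisons.

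Over 36 tumours the arm-centred r of this sum was 0.83 with Prg2 (rho 0.85) and 0.86 with Ccr3 (rho 0.84), and within cartridges it was 0.83, 0.65 and 0.96 for Prg2. Permutation p-values adjusted over 24 pairs of genes and markers were 0.00018 or lower, from raw values of 3e-05 or lower, and r without the 2 farthest tumours was 0.89 and 0.81. Ptprc, the leukocyte surface gene CD45, gave r of 0.71 with Prg2 and 0.59 with Ccr3. The 8 lymph node or spleen markers gave 0.64 with Prg2 and 0.50 with Ccr3. The 5 measured macrophage markers gave 0.18 and 0.13, and the housekeeping factor -0.07 and -0.10. Within the 3 cartridges the housekeeping factor gave -0.17, -0.32 and 0.29 with Prg2, and -0.72, -0.15 and 0.46 with Ccr3. Il5ra, the interleukin 5 receptor subunit that should accompany eosinophils, gave 0.05 and -0.05. Ccl24 gave r of 0.46 with the neutrophil precursor sum, 0.41 with the lymph node or spleen markers and 0.45 with Ptprc (adjusted permutation p 0.0220 each). Without the 2 farthest tumours these were 0.44, 0.29 and 0.29. Within the 3 cartridges r was 0.31, 0.20 and 0.69 for the sum. It was -0.07, 0.68 and 0.39 for the lymph node or spleen markers, and -0.19, 0.84 and 0.51 for Ptprc. Cma1 gave 0.40 with the lymph node or spleen markers (adjusted permutation p 0.0104). With the neutrophil precursor sum Cma1 gave -0.001, and with Ptprc 0.27 (adjusted permutation p 0.995 and 0.189). The part of these other cells in the levels of these genes was not tested.

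The eosinophil label was checked against the markers measured. Of 9 eosinophil markers listed, Prg2, Ccr3 and Il5ra were measured. Il5ra was above threshold in 34 of 36 tumours, at 15.1 to 1023 scaled counts with a median of 254, in Vehicle tumours as in treated ones. The 2 below it were Vehicle replicate 3 (15.1) and TP-0903 replicate 3 (26.2). These 2 also had the lowest counts of the epithelial marker Epcam (379 and 41.2, against a median of 2108 over all tumours). The part of tumour content in the Il5ra level was not tested. Its r with Prg2 and Ccr3 was near 0, so the label holds for these 3 genes only in part. In arm-centred values over 36 tumours, and chosen after their values were seen because neither gene reached the 18 lanes set for this measure, the genes most like Prg2 were Camp (r 0.85), Mpo (0.84) and Itga2b (0.83). Those most like Ccr3 were Itga2b (0.87), Mpo (0.87) and Camp (0.84). Itga2b encodes a platelet and megakaryocyte integrin. Without Vehicle replicate 3 and TP-0903 replicate 3, the places beside Prg2 went to Cyfip2 (0.90), Ppbp (0.89) and Itga2b (0.88), and those beside Ccr3 to Itga2b (0.91), Camp (0.89) and Mpo (0.87).

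**Figure D3:**
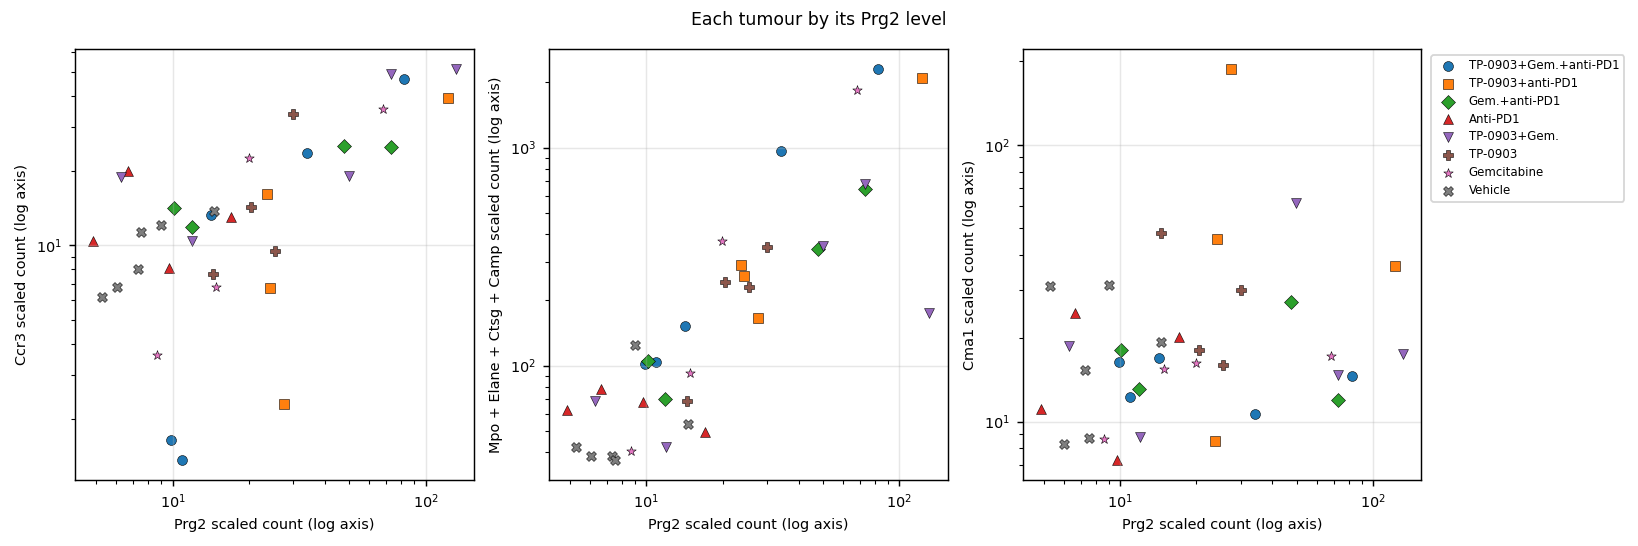
Scaled counts of Ccr3 (left), of the sum of Mpo, Elane, Ctsg and Camp (middle) and of Cma1 (right) against Prg2, all on log axes, with 1 point per tumour marked by arm. Ccr3 and the sum are high where Prg2 is high (arm-centred r of 0.82 and 0.83), while Cma1 is not (r of 0.03).

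Ccl24 and Ccl26 encode the eotaxins, chemokines that bind CCR3, and are neighbours on chromosome 5 (Ccl24 at 135569935 to 135573123, Ccl26 at 135560448 to 135563569). Ccl24 had 24.6, 16.5, 23.4, 15.01 and 121 scaled counts in TP-0903+Gemcitabine+anti-PD1 tumours, 60.6, 21.8, 26.5 and 6.87 in TP-0903+anti-PD1 tumours, 29.8, 20.03, 19.2 and 44.6 in Gemcitabine+anti-PD1 tumours, and 18.1, 20.2, 20.9 and 140 in Anti-PD1 tumours. It had 67.1, 71.4, 33.6, 19.8 and 27.1 in TP-0903+Gemcitabine tumours, 17.5, 13.4, 88.0 and 15.3 in TP-0903 tumours, 40.9, 42.5, 18.1 and 4.34 in Gemcitabine tumours, and between 13.9 and 24.3 with a median of 18.2 in Vehicle tumours. All treated arms overlapped Vehicle, and single tumours stood far above the rest of their arm in 3 arms.

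The Ccl24 fold with the smallest unadjusted p was that of Anti-PD1 against Vehicle, 1.39 ± 0.66 (edgeR adjusted p = 0.843). It was 0.06 ± 0.68 without Anti-PD1 replicate 4, the tumour with 140 scaled counts. Among the 3 genes per member chosen by likeness, Ccl24 was most like Marco (r 0.66), Il1r1 (0.65) and Ncf4 (0.63). Without Vehicle replicate 3 and TP-0903 replicate 3 these places were taken by Itgb2 (0.79), Il21r (0.76) and Irf4 (0.73), of which Irf4 was above threshold in 5 tumours.

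In the antibody arms Ccl26 had 16.1, 11.5, 4.26, 10.9 and 4.89 scaled counts in TP-0903+Gemcitabine+anti-PD1 tumours, 8.08, 13.2, 5.05 and 4.58 in TP-0903+anti-PD1 tumours, 9.52, 14.4, 21.2 and 22.3 in Gemcitabine+anti-PD1 tumours, and 31.9, 13.7, 18.04 and 7.30 in Anti-PD1 tumours. None of the 9 tumours with TP-0903 was above threshold, against 3 of the 8 tumours without it, and the arms overlapped. Averaged over the antibody arms the TP-0903 log2 fold was -0.95 ± 0.28, at an unadjusted edgeR p of 0.00183 and an adjusted p of 0.432, and -0.96 ± 0.41 with the cartridge as a block. In the single comparisons it was -1.12 ± 0.41 for TP-0903+anti-PD1 against Anti-PD1 and -0.78 ± 0.38 for TP-0903+Gemcitabine+anti-PD1 against Gemcitabine+anti-PD1 (edgeR adjusted p 0.632 and 0.997). TP-0903+Gemcitabine+anti-PD1 against Anti-PD1 gave -0.86 ± 0.38 (adjusted p 0.995). Of these Ccl26 values, 14 of 17 were at or below their thresholds and the highest, in Anti-PD1 replicate 1, was 46 raw counts.

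In the arms without antibody, Ccl26 had 9.57 to 16.3 scaled counts in TP-0903+Gemcitabine tumours, 8.73 to 10.3 in TP-0903 tumours, 10.8 to 22.6 in Gemcitabine tumours and 8.03 to 22.01 in Vehicle tumours. Across tumours the arm-centred r of Ccl24 and Ccl26 was -0.20 and rho -0.09, and neither passed the permutation test (p 0.379 and 0.619, adjusted 0.762 and 0.992).

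Il5 encodes the cytokine that drives eosinophil production, and lies on chromosome 11 at 53720794 to 53725103. Its arm medians ran from 10.96 in Gemcitabine to 16.7 in Gemcitabine+anti-PD1, with 12.3 in Vehicle tumours, and the arms overlapped throughout. It was above threshold in 1 tumour of the TP-0903+Gemcitabine+anti-PD1 arm, 1 of Gemcitabine+anti-PD1, 1 of Anti-PD1 and 2 of TP-0903. Its highest value, 54.3 scaled counts in TP-0903 replicate 3, was 29 raw counts. No Il5 fold in a tested comparison had an unadjusted edgeR p under 0.05.

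Cma1 encodes mast cell chymase, and lies on chromosome 14 at 55941451 to 55944675. It had 17.0, 16.5, 10.7, 12.3 and 14.7 scaled counts in TP-0903+Gemcitabine+anti-PD1 tumours, 45.8, 8.52, 36.6 and 188 in TP-0903+anti-PD1 tumours, 13.1, 12.02, 18.2 and 27.1 in Gemcitabine+anti-PD1 tumours, and 11.1, 7.27, 24.7 and 20.3 in Anti-PD1 tumours. It had 14.7, 17.5, 61.4, 18.8 and 8.77 in TP-0903+Gemcitabine tumours, 16.0, 18.1, 29.96 and 48.1 in TP-0903 tumours, 8.67 to 17.2 in Gemcitabine tumours, and between 8.28 and 31.1 with a median of 17.4 in Vehicle tumours. In scaled counts, the 3 high TP-0903+anti-PD1 tumours lay above every tumour of the TP-0903+Gemcitabine+anti-PD1, Anti-PD1 and Vehicle arms. Replicate 2 of the TP-0903+anti-PD1 arm lay among the lowest. In raw counts the 3 high tumours had 34, 29 and 82, against up to 35 in Vehicle tumours. They therefore overlapped Vehicle before scaling.

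The Cma1 log2 fold of TP-0903+anti-PD1 was 2.09 ± 0.63 against Anti-PD1 and 1.84 ± 0.55 against Vehicle. The fold of TP-0903+Gemcitabine+anti-PD1 against TP-0903+anti-PD1 was -2.21 ± 0.60. None of these passed edgeR's test (adjusted p 0.542, 0.112 and 0.577). Without TP-0903+anti-PD1 replicate 4, the tumour with 188, the Cma1 folds were 0.92 ± 0.57, 0.67 ± 0.52 and -1.05 ± 0.56. With the cartridge as a block they were 1.54 ± 0.92, 1.75 ± 1.29 and -2.37 ± 0.65. Without TP-0903+anti-PD1 replicate 2, the tumour with 8.52, edgeR called Cma1 against Vehicle (2.23 ± 0.51, adjusted p 0.0450) and in TP-0903+Gemcitabine+anti-PD1 against TP-0903+anti-PD1 (-2.61 ± 0.56, adjusted p 0.0386). DESeq2 called Cma1 against Vehicle with all tumours (1.86 ± 0.55). The tumour with 188 scaled counts had 82 raw counts in the shallowest library of the series, and arm-centred Cma1 correlated with the housekeeping factor at r of -0.54 and rho of -0.53 (permutation p 0.00345 and 0.00145, adjusted 0.0104 and 0.00497). Without the 2 farthest tumours that r was -0.39, and the part of depth in the Cma1 levels was not tested. Within cartridge 3, the fold of TP-0903+Gemcitabine+anti-PD1 against its 3 TP-0903+anti-PD1 tumours was -2.35 ± 0.77 (edgeR adjusted p 0.938).

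Gemcitabine, averaged over the antibody arms, gave a Cma1 fold of -1.03 ± 0.44, and TP-0903 gave 0.90 ± 0.44 (edgeR adjusted p 0.994 and 0.997). Without TP-0903+anti-PD1 replicate 4 the gemcitabine average of Cma1 was -0.44 ± 0.39. The interaction of the 2 drugs in these arms, added after the values had been seen, was -2.38 ± 0.87 (edgeR adjusted p 0.975), -1.83 ± 1.12 with the block and -1.21 ± 0.78 without TP-0903+anti-PD1 replicate 4. The genes most like Cma1, chosen after its values were seen, were Hspb2 (r 0.80), Il1rl1 (0.69) and Mef2c (0.68). Il1rl1 encodes the interleukin 33 receptor, which mast cells carry, but none of these genes was on the list of mast cell markers. Of 11 mast cell markers listed, 5 were measured. Cma1 had an arm-centred r of 0.17 with Kit and 0.15 with Tpsab1, so these levels do not show the mast cell label of Cma1.

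Tpsab1 is the mast cell alpha beta tryptase, for which RefSeq annotates the C57BL/6J locus (chromosome 17, 25343245 to 25345562) as a transcribed pseudogene. The probe's transcript accession was the only one of the 8 not found in that annotation. Tpsab1 had 10.4 to 34.6 scaled counts with a median of 17.7 in TP-0903+Gemcitabine+anti-PD1, 18.3 to 24.2 (21.1) in TP-0903+anti-PD1, 16.5 to 35.4 (26.7) in Gemcitabine+anti-PD1, 17.8 to 26.6 (20.9) in Anti-PD1, 19.6 to 35.1 (19.9) in TP-0903+Gemcitabine, 15.3 to 58.0 (20.6) in TP-0903, 8.67 to 22.5 (16.1) in Gemcitabine and 11.3 to 21.1 (16.9) in Vehicle tumours. The levels lay within a narrow band around the background thresholds and the arms overlapped, with 19 of 30 treated and 2 of 6 Vehicle tumours above threshold. The largest folds were 0.71 ± 0.32 for TP-0903 and 0.65 ± 0.31 for Gemcitabine+anti-PD1 against Vehicle (edgeR adjusted p 0.276 and 0.459). Without Vehicle replicate 3 and TP-0903 replicate 3 these Tpsab1 folds were 0.25 ± 0.30 and 0.73 ± 0.27, and without TP-0903 replicate 3 alone, the tumour with 58.0, the first was 0.17 ± 0.29. Tpsab1 was most like Masp2 (r 0.73), Crp (0.72) and Cd40lg (0.72), and most like Tbk1 (0.60), Ifnl2 (0.58) and Vhl (0.58) without Vehicle replicate 3 and TP-0903 replicate 3. Masp2 and Ifnl2 were above threshold in 4 tumours each.

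Kit encodes the receptor of stem cell factor, on which mast cells depend, and lies on chromosome 5 at 75574987 to 75656722. It is also expressed by progenitor cells and melanocytes. Kit had 36.9, 13.2, 17.0, 32.7 and 31.3 scaled counts in TP-0903+Gemcitabine+anti-PD1 tumours, 22.9 to 41.7 in TP-0903+anti-PD1, 25.2 to 37.7 in Gemcitabine+anti-PD1, 23.5 to 37.9 in Anti-PD1, 30.3, 52.6, 65.8, 42.7 and 27.9 in TP-0903+Gemcitabine, 30.6, 30.8, 1.87 and 35.1 in TP-0903, 21.5 to 31.2 in Gemcitabine, and 29.2, 28.8, 196, 24.1, 29.1 and 39.6 in Vehicle tumours. Apart from the 196 of Vehicle replicate 3 and the 1.87 of TP-0903 replicate 3, the arms covered much the same range. Against Vehicle the fitted log2 folds were -1.10 ± 0.47 in TP-0903+Gemcitabine+anti-PD1, -1.16 ± 0.51 in TP-0903 and -1.04 ± 0.50 in Gemcitabine tumours, and none passed edgeR's test (adjusted p 0.261 or higher). Without Vehicle replicate 3 and TP-0903 replicate 3 these Kit folds were -0.16 ± 0.26, 0.09 ± 0.29 and -0.11 ± 0.27. The genes most like Kit were Cd200 (r 0.85), Lyz2 (0.77) and Cxcr4 (0.77), and without those 2 tumours Tnfrsf18 (0.66), Il23r (0.65) and Ltk (0.63). These last 3 were above threshold in 3, 0 and 4 tumours, so their likeness to Kit is between counts near background.

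Between TP-0903+Gemcitabine and Vehicle, the contrast in view when the genes were chosen, the fitted log2 folds are given as a description. They were 2.69 ± 0.70 for Prg2, 1.61 ± 0.62 for Ccr3, 1.21 ± 0.64 for Ccl24, -0.03 ± 0.33 for Ccl26, 0.44 ± 0.36 for Il5, 0.33 ± 0.53 for Cma1, 0.52 ± 0.30 for Tpsab1 and -0.40 ± 0.46 for Kit. With Vehicle values raised to their lanes' thresholds, the ratio of geometric means was 1.91 for Prg2 and 1.46 for Ccr3. The TP-0903+Gemcitabine values were left as counted, and only 3 of 5 were above threshold for Prg2 and 2 of 5 for Ccr3. Scaled thresholds reached 32.4 in that arm and 21.5 in Vehicle, so these ratios are not lower bounds. They do not allow for the spread between tumours either. Of the 8 genes, 0 were called by edgeR, beside 3 of all 683 (0.439%), and nothing is read from these counts. Replicates 1, 2 and 3 of TP-0903+Gemcitabine held the high Prg2 values and replicates 4 and 5 lay in the Vehicle range, and the Prg2 fold was 2.07 ± 0.70 without replicate 2. TP-0903 averaged over 4 backgrounds gave described folds of 1.13 ± 0.38 for Prg2, 0.77 ± 0.30 for Cma1 and -0.66 ± 0.19 for Ccl26, and gemcitabine 1.05 ± 0.38 for Prg2 and -0.67 ± 0.30 for Cma1. No cartridge held both TP-0903+Gemcitabine and Vehicle tumours, and the block fit reaches between them only through the Gemcitabine arm.

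**Figure D4:**
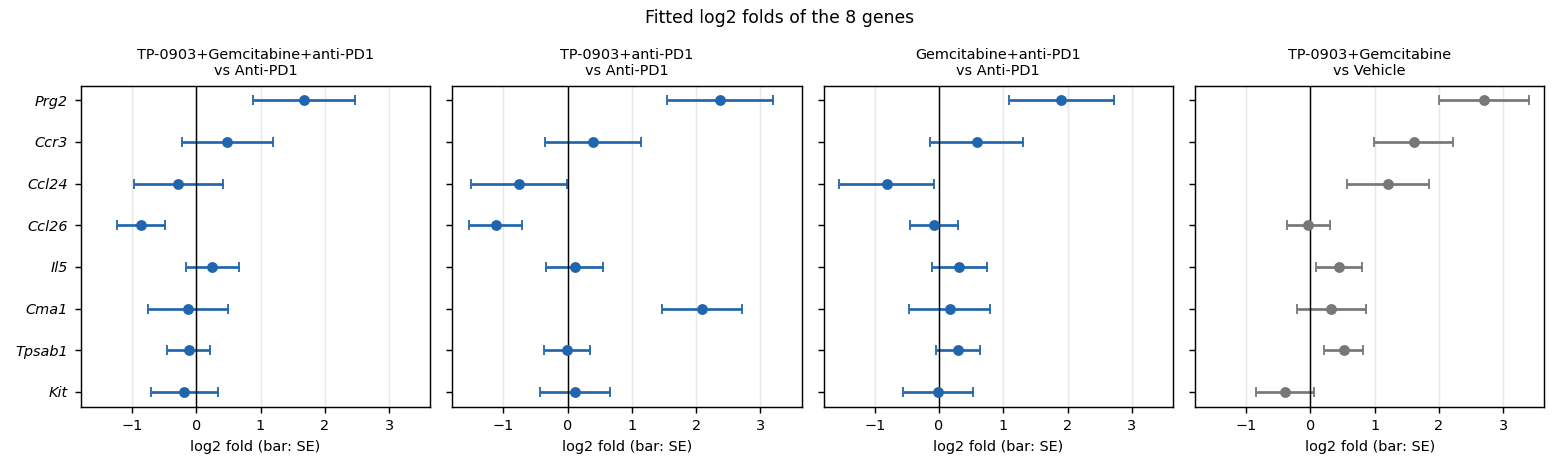
Fitted log2 folds with standard errors of the 8 genes for the 3 combinations with antibody against Anti-PD1 and, in grey, for TP-0903+Gemcitabine against Vehicle as a description. Prg2 is the gene with a positive fold larger than its standard error in the 3 panels against Anti-PD1, at 1.68, 2.37 and 1.90. These 3 panels share the Anti-PD1 tumours, so they are not independent, and their Prg2 folds were smaller with the cartridge as a block. The grey panel, with Prg2 at 2.69, is the contrast in view when the genes were chosen.

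Over the tested comparisons, the 8 genes were called in none by edgeR at an adjusted p under 0.05. In TP-0903 against Vehicle 0 of 8 were called, beside 4.83% of the 683 genes. In TP-0903+Gemcitabine+anti-PD1 against Vehicle 0 of 8 were called beside 0.878%, and in Gemcitabine+anti-PD1 against Vehicle 0 of 8 beside 0.146%. In Gemcitabine, in Anti-PD1 and in TP-0903+anti-PD1 against Vehicle 0 of 8 were called beside 0.0%, and the same held for the 5 comparisons between antibody arms, the 2 drug averages over them, the antibody's average and the added interaction. At an unadjusted p under 0.05 between 0 and 3 of the 8 genes were counted per comparison by edgeR, between 0 and 3 by DESeq2 and between 0 and 3 by limma. Over the 14 comparisons together edgeR counted 22 of 112 such results for the 8 genes (19.6%), beside 6.76% of 9562 for all genes, and 6 of the comparisons share the Vehicle tumours. The comparisons between antibody arms share tumours as well, and the genes were chosen with earlier results in view. These results are therefore not independent, and nothing is read from the difference in shares. After adjustment DESeq2 called 2 (Prg2 and Cma1) in TP-0903+anti-PD1 against Vehicle and 0 in the others, and limma called 0 in each, beside 10 of all 683 genes called by DESeq2 in that comparison. The median log2 fold of the 8 genes was 0.11 in TP-0903+anti-PD1 against Anti-PD1, beside 0.02 for all 683 genes, and 0.50 in TP-0903+anti-PD1 against Vehicle, beside -0.04.

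Few of the related genes on the panel were called, in comparisons where edgeR called from 0.0% to 4.83% of all 683 genes. Those named in the next sentences for detection were picked after their values were seen. Interleukin 4, interleukin 9 and interleukin 3 transcripts (Il4, Il9 and Il3) were above threshold in 0 of 36 tumours, Il13 in 7 and Il25 in 7. Of the mast cell and basophil immunoglobulin E receptor subunits, Fcer1a was above in 22 tumours and Ms4a2 in 7. Of the 14 tested type 2 cytokine genes, 5 tested mast cell genes, 3 eosinophil genes and 2 basophil genes, 0 were called higher and 0 lower in any of the 14 comparisons. Of the 6 tested CCR3 ligands, 1 was called, Ccl7, and of the 8 tested genes of alternatively activated macrophages also 1, Arg1. Both were higher in TP-0903 than in Vehicle tumours, a comparison in which 33 of all 683 genes (4.83%) were called. In TP-0903+Gemcitabine+anti-PD1 against Anti-PD1, the 3 highest folds among the type 2, eosinophil, mast cell, basophil and CCR3 ligand genes were those of Prg2 at 1.68, Ccl8 at 1.19 ± 0.84 and Il5ra at 0.84 ± 0.62. The 3 lowest were those of Ccl26 at -0.86, Ccr8 at -0.40 ± 0.33 and Il13ra1 at -0.40 ± 0.28.

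Ccl7, a chemokine that binds CCR3 among other receptors, had 30.8 to 217 scaled counts with a median of 39.9 in TP-0903 tumours, against 13.2 to 33.2 with a median of 25.5 in Vehicle tumours. Its log2 fold was 1.70 ± 0.49 (edgeR adjusted p = 0.0336), and the highest value was that of TP-0903 replicate 4. Without that tumour the Ccl7 fold was 0.55 ± 0.45 (adjusted p 0.611), and with Vehicle replicate 3 and TP-0903 replicate 3 both left out Ccl7 was at 1.94 ± 0.53 and no longer called (adjusted p 0.505). The Ccl7 call was also lost without TP-0903 replicate 3 alone and without Vehicle replicate 1, 4 or 5 (adjusted p 0.151, 0.0614, 0.0654 and 0.0716). Arg1, the arginase of alternatively activated macrophages and of liver, had 560 to 15689 scaled counts with a median of 935 in TP-0903 tumours, against 20.1 to 1150 with a median of 406 in Vehicle tumours. Its fold was 3.12 ± 0.76 (edgeR adjusted p = 0.00823), with the 2 extremes in TP-0903 replicate 3 and Vehicle replicate 3, the tumours with liver and lung transcripts. Without both, the Arg1 fold was 0.38 ± 0.52 and not called (adjusted p 0.906), and without TP-0903 replicate 3 alone it was 0.63 ± 0.63 (adjusted p 0.801). Ccl11, also picked after its values were seen and the eotaxin that was above threshold in all 36 tumours, had arm medians from 33.4 in Anti-PD1 to 64.6 in TP-0903+Gemcitabine, with 39.1 in Vehicle tumours, and was not called.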

How the data were processed

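RNA of 36 tumours was counted with the NanoString nCounter mouse PanCancer Immune panel, 750 endogenous and 20 housekeeping genes with 6 positive and 8 negative controls per lane. The authors deposited 1 count per gene and lane. The design text speaks of normalized data, but 27720 of 27720 deposited values equal the raw counts of the lane reports. The geometric mean over housekeeping genes (146 to 540) served as library size. Of 750 endogenous genes, 683 were kept that exceeded, in 4 or more lanes, the mean of the negative controls by 2 SD. One edgeR 4.0.16 quasi-likelihood fit (R 4.3.3) held all 8 arms, with p-values adjusted over all 683 genes, after tests on simulated data. DESeq2 1.42.0, limma 3.58.1, other scalings, no filter, cartridge, arms compared alone and left-out tumours were alternatives. The genes and lists were chosen with earlier results of these data known, so the contrast of TP-0903+Gemcitabine with Vehicle, its other pairs with TP-0903+Gemcitabine and the averages of each drug over 4 backgrounds are described without a test. The antibody's average over 4 backgrounds and the contrasts with Vehicle were tested, although they include tumours of that contrast. Likeness was ranked for those of the 8 genes above threshold in at least 18 lanes, with all endogenous genes as partners whatever their level. Named genes were the 8, every listed related gene that was called, and the 3 highest and 3 lowest folds of TP-0903+Gemcitabine+anti-PD1 against Anti-PD1, and names outside this rule are given as picked after their values were seen. Replicates were numbered in accession order.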

Additional observations from a re-analysis of the deposited data

Results flagged for a closer look

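In 9 of 64 combinations of gene and arm, 1 tumour lay farther from its arm than Dixon's 95% critical value allows. For normally distributed values chance gives about 1 in 20. The rule was applied to scaled counts without logs, for which that rate need not hold, so no excess is read from the 9. Prg2 was 122 scaled counts in TP-0903+anti-PD1 replicate 3, against 23.7 to 27.5 in the other tumours of that arm. Ccl24 was 121 in TP-0903+Gemcitabine+anti-PD1 replicate 5 (others 15.01 to 24.6), 140 in Anti-PD1 replicate 4 (others 18.1 to 20.9) and 88.0 in TP-0903 replicate 3 (others 13.4 to 17.5). Il5 was 54.3 in TP-0903 replicate 3 (others 10.2 to 14.2) and 23.7 in Gemcitabine replicate 2 (others 10.1 to 11.2). Cma1 was 61.4 in TP-0903+Gemcitabine replicate 3 (others 8.77 to 18.8). Kit was 1.87 in TP-0903 replicate 3 (others 30.6 to 35.1) and 196 in Vehicle replicate 3 (others 24.1 to 39.6).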

How the results depend on the processing

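No paired analysis was possible because the labels give no replicate numbers shared between arms. Over 289 alternative settings of the 14 tested comparisons, 3 called any of the 8 genes. DESeq2 called 2 in TP-0903+anti-PD1 against Vehicle. Leaving out single tumours gave 0 to 1 there and 0 to 1 in TP-0903+Gemcitabine+anti-PD1 against TP-0903+anti-PD1, each time Cma1 without TP-0903+anti-PD1 replicate 2. The cause was not tested. Kit in TP-0903 against Vehicle changed sign, to 0.094, when both Vehicle replicate 3 and TP-0903 replicate 3 were left out, and was -1.36 to -0.23 with single tumours left out. For TP-0903+Gemcitabine against Vehicle, the cartridge block gave log2 folds of 4.58 for Prg2, 4.05 for Ccr3, 3.11 for Ccl24, 0.59 for Ccl26, 1.12 for Il5 and 1.14 for Tpsab1. Scaling to positive controls only gave -0.75 for Ccl26, -0.24 for Il5, -0.18 for Tpsab1 and -1.004 for Kit, with the median of all genes at -0.59 in place of 0.07 and 140 in place of 3 genes called. With both of those tumours left out Kit was 0.52 there, and it was -0.58 to 0.53 with single tumours left out. With a threshold of 3 SD, Ccl26 was above it in 3 tumours and Il5 in 2, and with the highest negative control Il5 in 8. Over alternatives, all genes called ranged from 0 to 47 in TP-0903 against Vehicle (33 as reported), 0 to 11 in TP-0903+Gemcitabine+anti-PD1 (6), 0 to 10 in TP-0903+anti-PD1 (0), 0 to 5 in Gemcitabine+anti-PD1 (1), 0 to 3 in Gemcitabine (0) and 0 to 2 in Anti-PD1 (0), each against Vehicle. Counts near the thresholds limit Il5, Ccl26 and Ccr3 most.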
